A study of Homo sapiens with 6 samples.

Results

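The genes described here are 10 components of the Notch signalling pathway: the receptors NOTCH1, NOTCH2 and NOTCH3, the ligands JAG1, JAG2 and DLL1, the target genes HES1, HEY1 and NRARP, and ATOH1, a gene that the pathway represses. They were chosen by name, each through the 1 transcript cluster (the probe group of a gene on the array) that was paired with its symbol alone and had the highest mean, and all 10 of 10 had such a cluster, among 18417 genes in all. AGS cells, a human gastric adenocarcinoma line, received siRNA against CTNNB1, the beta-catenin gene, while control cells received siRNA without a target, and total RNA was taken 48 hours later. Each group held 3 Affymetrix Human Gene 1.0 ST arrays, so 6 arrays entered the comparison. The arrays are titled as biological replicates; whether each came from its own passage or day is not stated, and p-values cover the spread of these samples alone. All values come from 1 cell line, which is known to carry an activating mutation of CTNNB1, and both groups had been through transfection. The question was how the RNA levels of Notch pathway genes differed when CTNNB1 was silenced.

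In Notch signalling a ligand on one cell binds a receptor on its neighbour, the receptor is cleaved by ADAM proteases and then by gamma-secretase, and its intracellular domain enters the nucleus. There it joins the DNA-binding protein RBPJ and coactivators of the Mastermind-like family and switches on genes such as HES1, HEY1 and NRARP. In the intestinal epithelium the pathway keeps progenitor cells undifferentiated and, through the repressor HES1, holds down ATOH1, the factor that directs cells towards secretory fates, while Wnt signalling through beta-catenin maintains the same progenitors. The array reads RNA, and receptor cleavage is not measured by it.

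CTNNB1 was at 11.92, 11.76 and 11.75 on the log2 scale on control siRNA replicates 1 to 3 and at 10.27, 10.78 and 10.58 on CTNNB1 siRNA replicates 1 to 3. All 3 arrays of the silenced group lay below all 3 controls (log2 difference -1.27, SE 0.17; adjusted p = 0.232 in limma). The array of CTNNB1 siRNA replicate 1 was unlike the other 5, with Pearson correlations of 0.963 to 0.967 with them across tested clusters, against 0.984 to 0.993 among the remaining pairs. Many of the differences below are therefore given with and without it. All 6 epithelial markers (EPCAM, CDH1, KRT8, KRT18, KRT19 and CLDN4) lay above 6.023, the median of the tested clusters' means. Their mean per array was 9.82 to 9.98 in control cells and 10.16 to 10.68 after CTNNB1 siRNA, and the part of this shift in the results below was not tested. Of 4 leukocyte markers measured 1 lay above that median (CD68), of 5 fibroblast markers 1 (COL1A1) and of 5 endothelial markers 0. The mean of the leukocyte list was 4.69 to 4.87 in controls and 4.82 to 5.09 after CTNNB1 siRNA, of the fibroblast list 4.76 to 4.90 and 4.88 to 5.02, and of the endothelial list 3.87 to 3.91 and 3.84 to 4.11.

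The sequence before the transcription start is shown for HES1 and NRARP, the members whose groups were apart on the arrays, and for ATOH1, the gene that HES1 represses. Each is the 250 bases before the RefSeq gene start in GRCh38.p14, written 5′ to 3′ on the gene's strand. HES1 is on the plus strand at chr3:194135898-194136147, NRARP on the minus strand at chr9:137302272-137302521 and ATOH1 on the plus strand at chr4:93828503-93828752. Capitals mark matches to TGGGAA, the core letters that RBPJ binds, and to CTTTGAT or CTTTGAA, letters that TCF and LEF factors, the DNA-binding partners of beta-catenin, bind; both strands were searched and no matches overlapped.
HES1: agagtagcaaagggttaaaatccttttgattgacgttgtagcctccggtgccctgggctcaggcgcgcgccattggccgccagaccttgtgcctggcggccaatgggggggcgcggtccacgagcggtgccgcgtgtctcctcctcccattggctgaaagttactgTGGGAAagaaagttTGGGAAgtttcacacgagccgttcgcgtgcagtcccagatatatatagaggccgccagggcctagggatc
NRARP: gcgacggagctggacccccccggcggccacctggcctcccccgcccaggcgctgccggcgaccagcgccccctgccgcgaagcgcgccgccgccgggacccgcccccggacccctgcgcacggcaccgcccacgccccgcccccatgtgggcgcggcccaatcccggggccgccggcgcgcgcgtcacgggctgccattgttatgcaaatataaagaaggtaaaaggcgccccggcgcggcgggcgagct
ATOH1: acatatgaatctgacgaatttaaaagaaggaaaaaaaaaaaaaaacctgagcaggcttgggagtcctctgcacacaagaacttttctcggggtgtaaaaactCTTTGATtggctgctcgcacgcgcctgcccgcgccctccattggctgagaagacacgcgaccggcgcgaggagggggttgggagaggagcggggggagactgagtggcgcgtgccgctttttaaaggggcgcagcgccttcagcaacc

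The HES1 stretch held 2 matches to TGGGAA, at 84 to 79 and at 70 to 65 bases before the start. At least 2 matches in such a window occurred in 2.9% of the 35116 promoters of the RefSeq table, and at least 1 in 20.8%. HES1 was the 1 member with a TGGGAA match among the 8 members listed in that table (all but DLL1 and HEY1). The ATOH1 stretch held 1 match to CTTTGAT, at 148 to 142 bases before the start, where 2.26% of promoters have at least 1, and no other member listed had it. CTTTGAA, found in 3.8% of promoters, was in 0 of the 8. The NRARP stretch, with a GC content of 78.4%, held none of these letters, as did those of NOTCH1, NOTCH2, NOTCH3, JAG1 and JAG2. A match is a description of the letters, and no binding was measured.

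Of the 10 Notch genes, 3 had a higher mean and 7 a lower mean after CTNNB1 siRNA, with a median log2 difference of -0.070. Over all 19460 tested clusters the median was -0.0045, with 49.2% higher and 50.8% lower. The median size of the difference, without its sign, was 0.11 for the members and 0.15 for all clusters. In limma 0 of 10 passed an adjusted p of 0.05 over all clusters, where 1 cluster (0.00514%) did. At an unadjusted p under 0.05 there was 1 of 10, NRARP, beside 5.64% of all clusters. The arrays of the 2 groups did not overlap for 2 of 10, HES1 (higher) and NRARP (lower), beside 13.6% of all clusters (6.81% higher and 6.8% lower). With 10 members, both counts lie near the share over all clusters. Without control siRNA replicate 3 the groups were apart for 5 of 10, beside 22.3% of all clusters in that smaller set of arrays.

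**Figure D1:**
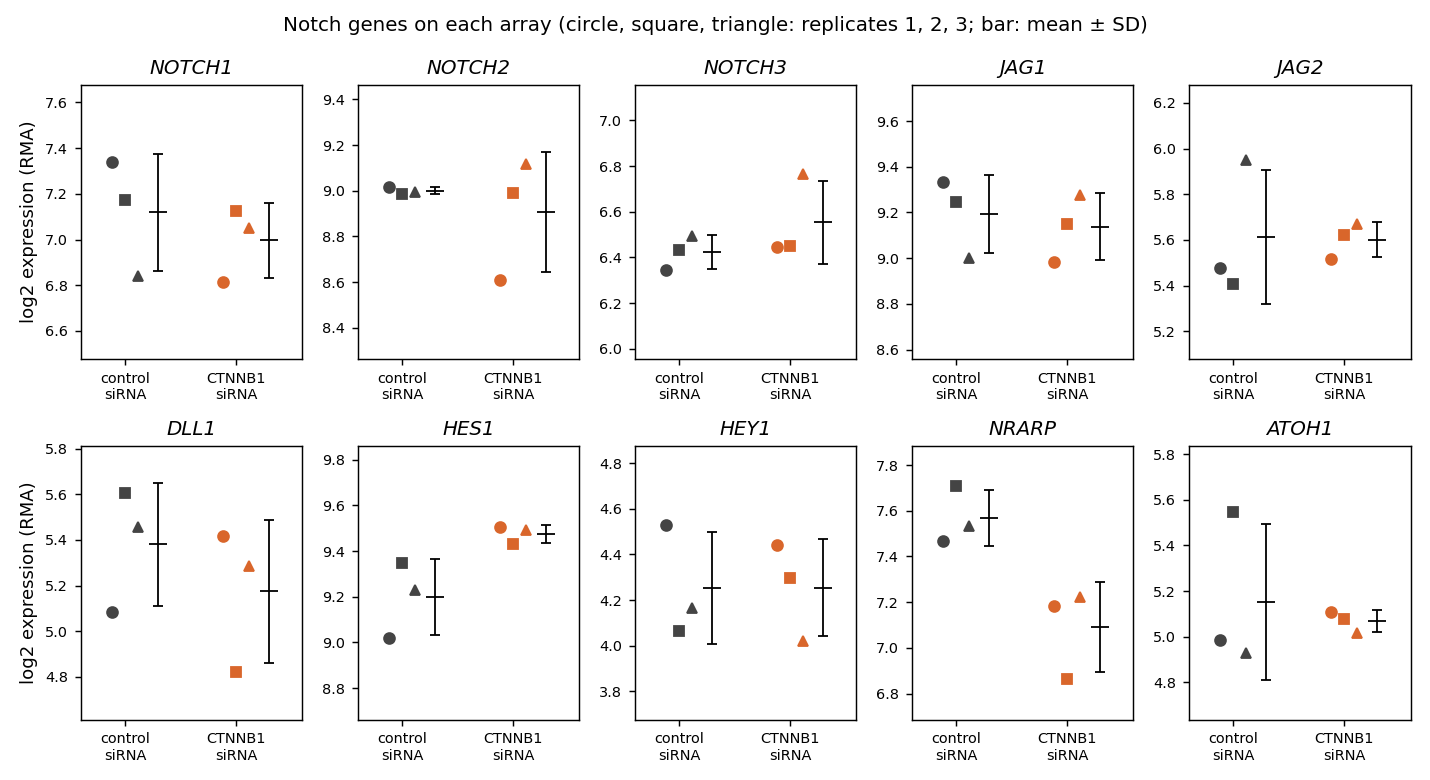
Log2 expression (RMA, vertical axis) of the 10 Notch genes on each array, by siRNA group; circles, squares and triangles are replicates 1, 2 and 3, bars are the mean ± SD of 3 arrays, and every panel spans the same range. Only HES1 (9.43 to 9.50 against 9.02 to 9.35) and NRARP (6.86 to 7.22 against 7.47 to 7.71) have groups that do not overlap.

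The receptors differed little between the groups. NOTCH1, a receptor of epithelial progenitors and of developing T cells, was at 7.34, 7.17 and 6.84 on control siRNA replicates 1 to 3 and at 6.81, 7.13 and 7.05 on CTNNB1 siRNA replicates 1 to 3. The third control array was as low as the silenced arrays, and the groups overlapped. Its means were 7.12 ± 0.25 (SD, n = 3) and 7.00 ± 0.16 (SD, n = 3), a log2 difference of -0.12 (95% confidence interval -0.52 to 0.28; adjusted p = 0.884 in limma). That difference was -0.26 with the groups apart when control siRNA replicate 3 was left out, -0.011 when control siRNA replicate 1 was and -0.030 when CTNNB1 siRNA replicate 1 was.

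NOTCH2, the receptor gene known from Alagille syndrome along with JAG1, was at 9.02, 8.99 and 8.99 in control cells and at 8.61, 8.99 and 9.12 after CTNNB1 siRNA. The controls were nearly identical, and the lower mean of the silenced group came from its first array. The log2 difference was -0.094 (95% confidence interval -0.47 to 0.28; adjusted p = 0.908 in limma), and 0.054 without that array. The NOTCH2NL genes are partial copies of NOTCH2, so its probes may read them too. A second cluster, shared by NOTCH2, NOTCH2NLA and NOTCH2NLB and not used for the count, had a difference of -0.073.

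NOTCH3, a receptor best known from vascular smooth muscle, was at 6.35, 6.43 and 6.49 in control cells and at 6.44, 6.45 and 6.76 after CTNNB1 siRNA. The third silenced array was the highest of the 6, and the other 2 lay within the range of the controls. Its log2 difference of 0.13 (95% confidence interval -0.21 to 0.47; adjusted p = 0.854 in limma) was 0.023 without that array and at most 0.18 when another array was left out. NOTCH4, the receptor outside the 10 genes, differed by 0.032, and by 0.13 without CTNNB1 siRNA replicate 1.

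Among the ligands, JAG1, which is expressed by many epithelia and is itself a known target of Wnt signalling, was at 9.33, 9.24 and 9.00 in control cells. After CTNNB1 siRNA it was at 8.99, 9.15 and 9.28, so the groups covered almost the same range. The means were 9.19 ± 0.17 (SD, n = 3) and 9.14 ± 0.15 (SD, n = 3), and the log2 difference of -0.054 had a 95% confidence interval of -0.41 to 0.30 (adjusted p = 0.946 in limma). As a ratio, this interval reaches from 0.753 to 1.23 of the control level. Leaving out control siRNA replicate 3 gave -0.15, and leaving out CTNNB1 siRNA replicate 1 gave 0.022. Larger differences of JAG1 lie outside this unadjusted interval, while a smaller one in either direction is not excluded. The edge of the interval is not the limit of detection with 3 arrays per group. CTNNB1, at a log2 difference of -1.27, did not pass an adjusted p of 0.05 in limma.

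JAG2, the second Jagged ligand, was at 5.48, 5.41 and 5.95 in control cells and at 5.52, 5.62 and 5.67 after CTNNB1 siRNA. The third control array was the highest of the 6, and the difference of -0.010 (SE 0.18; adjusted p = 0.992 in limma) was 0.16 with the groups apart without it, and -0.11 without control siRNA replicate 2. DLL1, a Delta-like ligand that secretory cells present to neighbouring progenitors, was at 5.08, 5.60 and 5.45 in control cells and at 5.42, 4.82 and 5.29 after CTNNB1 siRNA. The lowest DLL1 value was on CTNNB1 siRNA replicate 2, and the log2 difference of -0.21 (95% confidence interval -0.69 to 0.28; adjusted p = 0.836 in limma) was -0.029 without that array. It was -0.35 with the groups apart when control siRNA replicate 1 was left out, -0.33 without CTNNB1 siRNA replicate 1 and -0.38 with array weights (unadjusted p = 0.0587 in limma). DLL1 was among the dimmest 40% of clusters (mean under 5.362), where RMA compresses differences, and JAG2 lay just above that limit. DLL3 and DLL4, the other Delta-like ligands, differed by 0.22 and 0.057.

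**Figure D2:**
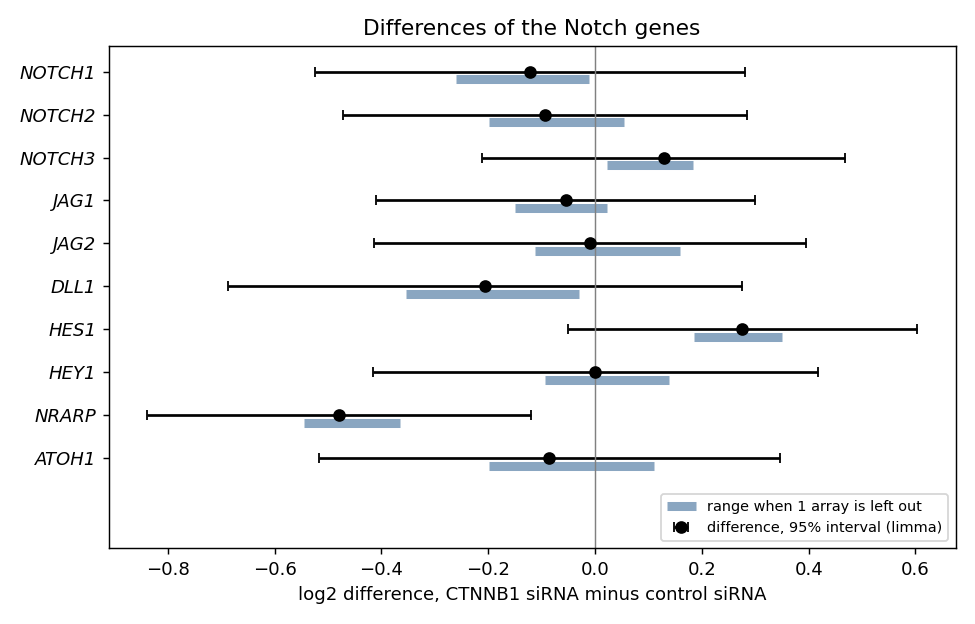
Log2 difference (CTNNB1 siRNA minus control siRNA, horizontal axis) of each Notch gene; points and whiskers are the limma estimate and its 95% confidence interval from 6 arrays, and blue bars the range of the estimate when any 1 array is left out. The interval of NRARP (-0.84 to -0.12) lies below 0 and those of the other 9 genes include it.

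The target genes held the 2 members whose groups were apart, and these lay in opposite directions. HES1, a transcriptional repressor of the basic helix-loop-helix type and the classical Notch target, was at 9.02, 9.35 and 9.23 on control siRNA replicates 1 to 3. On CTNNB1 siRNA replicates 1 to 3 it was at 9.50, 9.43 and 9.49. Every silenced array lay above every control array, though the lowest silenced value was close to the highest control value. The means were 9.20 ± 0.17 (SD, n = 3) and 9.48 ± 0.038 (SD, n = 3), a log2 difference of 0.28 or 1.21-fold, with a 95% confidence interval of -0.051 to 0.60 that includes 0. HES1 did not pass in limma (unadjusted p = 0.0875, adjusted p = 0.816). Its difference stayed between 0.19 and 0.35 when any 1 array was left out, and it was 0.26 without CTNNB1 siRNA replicate 1.

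NRARP, a small ankyrin repeat protein that binds the Notch intracellular domain as a feedback inhibitor and is also known to stabilise LEF1, was at 7.47, 7.71 and 7.53 in control cells. After CTNNB1 siRNA it was at 7.18, 6.86 and 7.22. All 3 silenced arrays lay below all 3 controls, with the lowest value on replicate 2. The means were 7.57 ± 0.12 (SD, n = 3) and 7.09 ± 0.20 (SD, n = 3), a log2 difference of -0.48 (95% confidence interval -0.84 to -0.12), or 1.39-fold lower. NRARP had the smallest p of the 10 genes and rank 311 among the 19460 clusters (unadjusted p = 0.0153, adjusted p = 0.816 in limma). Leaving out any 1 array kept its difference between -0.55 and -0.37, and it was -0.53 without CTNNB1 siRNA replicate 1. The unadjusted p in limma was above 0.05 when the second array of either group was left out, 0.0575 for the control array and 0.0646 for the silenced one.

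The opposite positions of HES1 and NRARP can also be given within each array, for a pair chosen after the values were seen. The log2 value of HES1 minus that of NRARP was 1.55, 1.64 and 1.70 on the control arrays and 2.32, 2.57 and 2.27 on the CTNNB1 siRNA arrays. The group means were 1.63 ± 0.073 (SD, n = 3) and 2.39 ± 0.16 (SD, n = 3). Since the 2 genes were picked because their groups were apart in opposite directions, the groups of this difference had to be apart, and it was given no test.

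**Figure D3:**
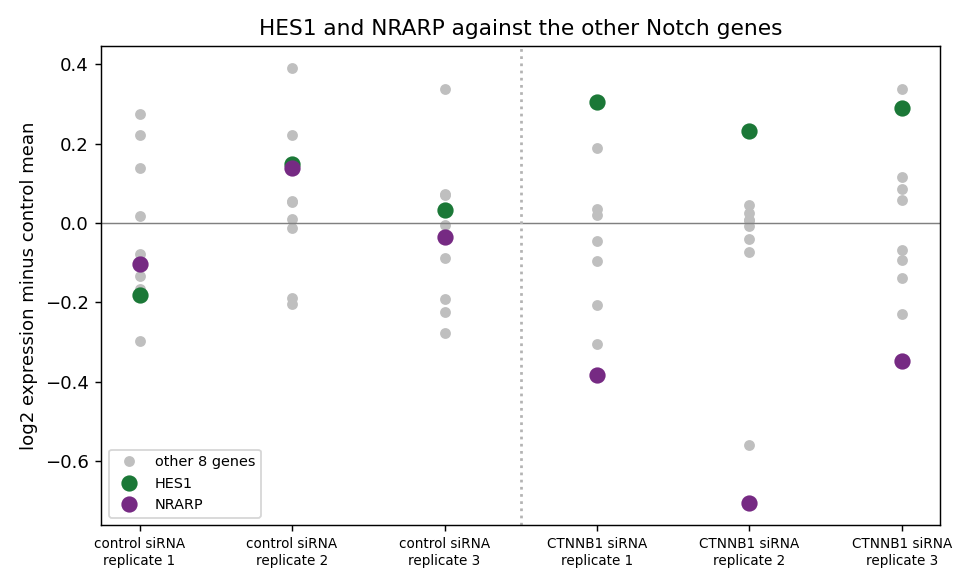
Log2 expression minus the gene's control mean (vertical axis) on each of the 6 arrays, with HES1 in green, NRARP in purple and the other 8 Notch genes in grey. HES1 lies above its control mean and NRARP below it on all 3 CTNNB1 siRNA arrays. Both genes were picked because their groups were apart, and the subtraction centres each gene's control arrays on 0.

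HEY1, a repressor related to HES1 and a Notch target of vessels and many other tissues, was at 4.53, 4.07 and 4.17 in control cells and at 4.44, 4.30 and 4.02 after CTNNB1 siRNA. The groups covered the same range, with a log2 difference of 0.00091 (95% confidence interval -0.42 to 0.42; adjusted p = 0.999 in limma). The sign of this difference turned when the arrays were centred on their median (-0.0098). ATOH1, the factor of secretory fate, was at 4.99, 5.54 and 4.93 in control cells and at 5.11, 5.08 and 5.02 after CTNNB1 siRNA. The second control array was the highest, and the difference of -0.086 (95% confidence interval -0.52 to 0.35; adjusted p = 0.927 in limma) was 0.11 with the groups apart without it, and -0.20 without control siRNA replicate 3. Both clusters were among the dimmest 40%, so a small difference does not show that the gene was unchanged.

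The rest of the pathway was read from a list of 61 other Notch pathway genes, of which 55 were measured, 32 with a higher mean and 23 with a lower one (median log2 difference 0.024, and 0.038 without CTNNB1 siRNA replicate 1). In limma 0 of 55 passed over all clusters and 2 had an unadjusted p under 0.05, beside 5.64% of all clusters in either direction. Both of these were higher, beside 3.04% of all clusters higher at that level. The groups were apart for 8 of 55, 6 higher and 2 lower, which is 14.5% beside 13.6% of all clusters. The share that was apart was therefore close to that of the array as a whole.

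BHLHE40, a basic helix-loop-helix repressor of the hairy-related class that responds to hypoxia and the circadian clock, had the smallest p of the list. Its role in the list is that of a repressor of this type, and whether it follows Notch in these cells was not tested. It was at 8.88, 9.43 and 9.24 in control cells and at 9.72, 10.01 and 9.80 after CTNNB1 siRNA, all silenced arrays above all controls. The log2 difference was 0.66 (95% confidence interval 0.25 to 1.07; unadjusted p = 0.00619, adjusted p = 0.816 in limma), and 0.51 to 0.78 when any 1 array was left out. MIB2, a ubiquitin ligase that drives the endocytosis of Notch ligands, was at 5.82, 5.78 and 5.78 in control cells and at 6.21, 6.20 and 6.21 after CTNNB1 siRNA. Its replicates were almost identical within each group, and the difference was 0.41 (95% confidence interval 0.13 to 0.70; unadjusted p = 0.0104, adjusted p = 0.816 in limma), and 0.40 to 0.43 when any 1 array was left out.

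The other 6 genes of the list with groups apart, named after their values were seen, differed less clearly. LFNG, the Fringe glycosyltransferase that tunes a receptor's choice between Delta-like and Jagged ligands, differed by 0.39 (SE 0.18), and by 0.26 without CTNNB1 siRNA replicate 1. ADAM10, the protease of the first ligand-dependent cleavage, differed by 0.39 (SE 0.20), a value that was 0.19 without control siRNA replicate 1. SPEN, a corepressor partner of RBPJ, differed by -0.37 (SE 0.20), and by -0.16 without CTNNB1 siRNA replicate 1. TLE1, a Groucho corepressor shared by HES and TCF factors, differed by -0.26 (SE 0.15), a value that was -0.17 without control siRNA replicate 1. HEYL, a HEY-family repressor, differed by 0.13 (SE 0.13) and FURIN, the convertase that cuts the receptor precursor, by 0.12 (SE 0.13). In limma the adjusted p of these 6 genes was 0.816 to 0.846.

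By role, several groups rested on CTNNB1 siRNA replicate 1, so each is given with that array and then without it. The nuclear complex and its coactivators had 6 of 8 measured genes lower and a median of -0.19, and 5 of 8 and -0.053 without the array. RBPJ itself, the DNA-binding core, was at -0.0031 (SE 0.16) and 0.027. The acetyltransferase gene CREBBP, whose groups overlapped, was at -0.70 (SE 0.34) and -0.28. The coactivator gene MAML2 was at -0.34 (SE 0.52) and 0.35, so its sign turned.

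The 8 corepressors measured had 5 lower and 3 higher, and 6 lower and 2 higher without that array. TLE3, a Groucho corepressor, had the lowest value of these at -0.51 and was at -0.21 without it, while KDM5A, a histone demethylase partner of RBPJ, had the highest at 0.32 and was at 0.038 without it. The cleavage proteases had 5 of 8 higher, and 6 of 8 without the array. The gamma-secretase subunit gene NCSTN was at -0.36 with it and at 0.020 without it, and PSEN2, a catalytic subunit gene, at -0.013 and -0.46, whereas ADAM10 was at 0.39 and 0.48.

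The 9 genes of receptor trafficking and turnover lay between -0.22 for DTX4 (-0.066 without the array) and 0.28 for DTX2 (0.22). Of the 9 other genes of HES, HEY and BHLHE type 7 were higher, and 5 without the array, with HEY2 lowest (-0.22 and -0.25) and BHLHE40 highest (0.66 and 0.72). The 5 receptor and ligand genes outside the members were all higher both ways, by 0.014 to 0.25 and by 0.068 to 0.23. The 5 glycosylation enzymes had 2 higher and 1 without the array, from MFNG (-0.26 and -0.31) to LFNG (0.39 and 0.26). Of the 3 ubiquitin ligases of ligand endocytosis, MIB2 was at 0.41 both ways. MIB1 was at 0.15 (SE 0.26) and -0.10, and NEURL1 at -0.041 and 0.050, so both of their signs turned. No gene of these groups passed in limma, so the counts by role describe means only, and these genes were named after their values were seen.

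**Figure D4:**
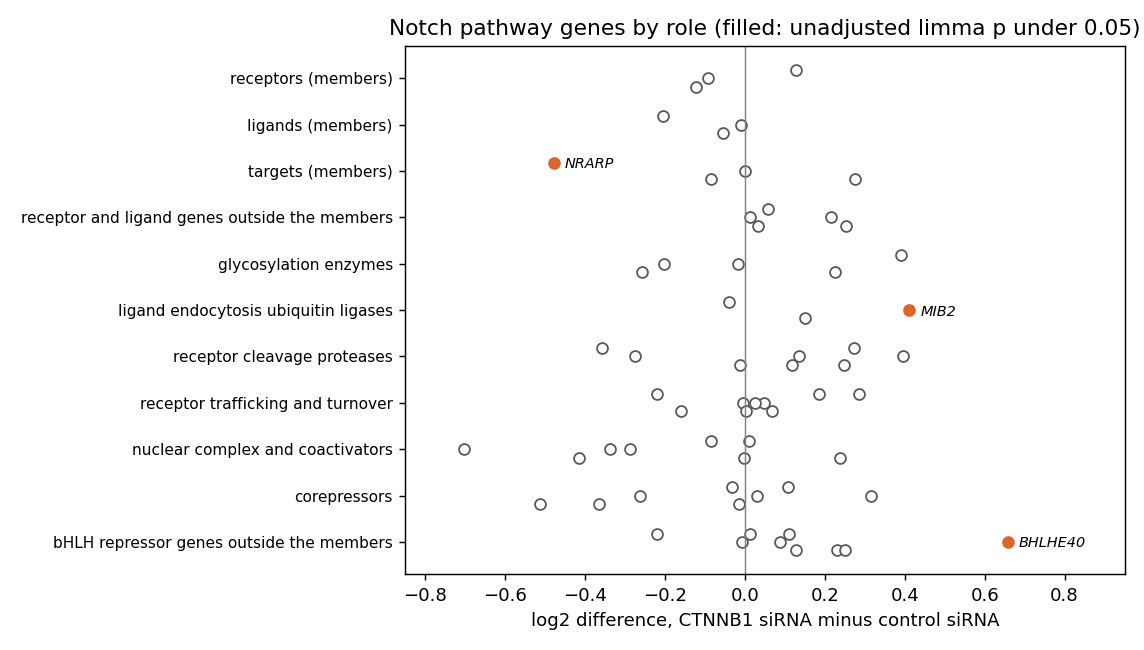
Log2 difference (CTNNB1 siRNA minus control siRNA, horizontal axis) of the 10 Notch genes and of 55 other pathway genes, 1 point per gene, in rows by role; filled points have an unadjusted limma p under 0.05. The filled points are NRARP at -0.48, MIB2 at 0.41 and BHLHE40 at 0.66, and the points of most roles lie on both sides of 0.

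Genes of secretory and enteroendocrine lineages, the fates that ATOH1 and related factors direct, were read from a list of 25, of which 23 were measured. There were 15 with a higher and 8 with a lower mean (median log2 difference 0.058, and 0.098 without CTNNB1 siRNA replicate 1), and 5 lay above the median level of all clusters. In limma 0 of 23 passed and 1, which was lower, had an unadjusted p under 0.05, beside 5.64% of all clusters in either direction (2.6% lower). This was DCLK1, a kinase gene used as a marker of tuft cells, at 3.76, 4.26 and 3.74 in control cells and at 3.25, 3.28 and 3.67 after CTNNB1 siRNA. Its silenced arrays lay below the controls, with a log2 difference of -0.52 (SE 0.20; unadjusted p = 0.0297, adjusted p = 0.816 in limma), and -0.35 without control siRNA replicate 2. When any 1 array was left out its unadjusted p in limma lay between 0.0166 and 0.108. DCLK1 was among the dimmest 40% of clusters. POU2F3, a factor gene of tuft cells in the same list, was at 0.12 (SE 0.20) with groups that overlapped. Without CTNNB1 siRNA replicate 1 it was at 0.32, and DCLK1 at -0.45. The groups were apart for 3 of 23 genes, which is 13.0% beside 13.6% of all clusters. Beside DCLK1 these were, named after their values were seen, the enteroendocrine factor genes NEUROG3 at 0.21 (SE 0.14) and INSM1 at 0.16 (SE 0.13). NEUROG3 was also among the dimmest 40%. Other enteroendocrine genes of the list went both ways, and their groups overlapped. CHGA was at 0.34, SYP at 0.077 and PAX4 at 0.037, while GHRL was at -0.30, CHGB at -0.11, SST at -0.065 and GAST at -0.023. SPDEF and GFI1, factors that act downstream of ATOH1, were at 0.021 (SE 0.13; -0.039 without CTNNB1 siRNA replicate 1) and 0.062 (SE 0.17), and the goblet cell mucin gene MUC2 was at 0.13 (SE 0.13). These 3 were among the dimmest 40% of clusters. CREB3L1 had the highest difference of the list at 0.43 (SE 0.45), and 0.73 without CTNNB1 siRNA replicate 1, with groups that overlapped. All genes of the list named here other than DCLK1 were chosen after the values were seen.

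Likeness to HES1 and JAG1 over the 6 arrays was taken among 9257 genes whose mean reached the median of all clusters. The genes most like HES1 by Pearson correlation were PLK3 (0.992), ZSWIM4 (0.991) and COQ4 (0.989). Those most like JAG1 were GARIN5B (0.992), ZBTB18 (0.983) and SNORA57 (0.980). With 6 points that share 2 groups, these values are a description.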

How the data were processed

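The authors deposited 1 log2 value per transcript cluster and array. The submitters' processing notes name RMA and Affymetrix Expression Console 1.1; for the genome build and the annotation, nothing is given in the sources used here. RMA gives all arrays a common distribution, which hides any shift common to all transcripts, and it compresses the differences of dim clusters. Of 33297 clusters, 19460 were paired with exactly 1 symbol in the platform's annotation and tested, with symbols updated through RefSeq gene identifiers. The cluster with the highest mean stood for a gene. Groups were taken from the titles, 3 arrays each, and compared by lmFit and eBayes of limma 3.58.1 (R 4.3.3). Tests were 2-sided, p-values were adjusted by Benjamini-Hochberg over the 19460 clusters, the threshold was 0.05, and no block, weights or filter were used. Differences are CTNNB1 siRNA minus control siRNA. The procedure was tested on simulated data. The number of arrays limits the precision. The members and lists were chosen with earlier results of these data known. The text names CTNNB1, all members, list genes with an unadjusted p under 0.05, and the 3 genes most like HES1 and JAG1. Other list genes, among them NOTCH4, DLL3 and DLL4, were named after their values were seen. RefSeq promoters of GRCh38.p14 gave the sequences.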

Additional observations from a re-analysis of the deposited data

How the results depend on the processing

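Alternatives were a replicate block, leaving out each array, leaving out the dimmest 40% of clusters, array weights, centring arrays on their median, eBayes with trend and robust, and the mean of a gene's clusters. In all of them 0 Notch members, 0 genes of the wider list and 0 of the secretory list passed in limma, and the smallest adjusted p of a member was 0.312 (NRARP with array weights); at an unadjusted p under 0.05 there were 0 or 1 members. HES1 stayed higher and NRARP lower, with groups apart, in every alternative. Since their groups were apart on the full set of arrays, only centring could have changed this, so it is no test of these 2 genes. Over all clusters, 1 passed as reported, 0 with the replicate block (1123 at an unadjusted p under 0.05) and 0 without the dimmest 40% (670), 13 with array weights, and 0 to 10 when 1 array was left out, the 10 without CTNNB1 siRNA replicate 1. Members with groups apart were 2, beside 13.6% of all clusters, and 2 to 5 when 1 array was left out, beside 22.3% to 25.7%. The 5 came without control siRNA replicate 3. With fewer arrays such a count can only stay or rise. Small differences turned sign. With array weights these were NOTCH1 (0.033), NOTCH2 (0.023), JAG1 (0.052) and HEY1 (-0.010), and with centring HEY1 (-0.0098). When 1 array was left out the range was -0.20 to 0.054 for NOTCH2, -0.15 to 0.022 for JAG1, -0.11 to 0.16 for JAG2, -0.093 to 0.14 for HEY1 and -0.20 to 0.11 for ATOH1. The cause was not tested. Same-numbered arrays of the groups correlated in their deviations from the group mean at 0.092, 0.12 and 0.098, and each array correlated best with its own number, a hint from the data only, so the numbers were not taken as pairs; the replicate block gave NRARP an adjusted p of 0.743 in limma. At an unadjusted p under 0.05 in limma the wider list had 2 to 4 genes and the secretory list 0 to 2 over all alternatives. At that level lay 5.64% of all clusters as reported. In alternatives that kept all 19460 clusters there were 695 (without control siRNA replicate 1) to 1715 (array weights). The counts of members and list genes are to be read beside these.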
